A study of Mus musculus with 16 samples.

Results

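The potassium, sodium, calcium and pacemaker channel genes were taken as every gene whose symbol starts with Kcn, Cacn or Hcn, or with Scn and a digit. Epithelial sodium channel genes and 1 inward rectifier gene were left out. The array carried 141 such genes, and 67 of them were chosen by their signal: the scanner flagged a probe as well above background on every array of 1 group or more. These 67 stand among 13725 genes tested, out of 22911 gene symbols on the array. The choice used detection, so detection is described here and not tested. Of the 67 genes, 55 passed in all 4 groups, 4 in 3 groups, 6 in 2 groups and 2 (Kcnk15 and Kcna4) in 1 group. Just outside lay 7 genes detected on 3 arrays of their best group (Cacng7, Hcn3, Kcne1l, Kcne4, Kcnh1, Kcnmb1 and Scn2a), with mean log2 levels of -4.68 to -3.42 over all 16 arrays. Just inside lay Kcnk15, with a mean of -3.38 over DKO hearts, and Kcna4, with -3.60 over AKT1 KO hearts. Over all 16 arrays their means were -3.27 and -4.12, so Kcna4 lay within the range of the genes just outside. A further 6 genes reached 2 arrays, 19 reached 1 array and 42 reached none. Among the genes not kept were Cacna1d and Kcnv2, which encode a pore and a modifier subunit of cardiac currents.

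RNA from the heart apex of 16 male C57Bl/6 mice was measured on 1-colour Agilent arrays, 1 array per mouse and 4 mice per group. AKT1+AKT2 DKO mice (named DKO here) were homozygous for both floxed genes, AKT1 KO mice for loxP sites around exons 6 and 7 of AKT1, and AKT2 KO mice for loxP sites around exons 5 and 6 of AKT2. All of them, and the control mice, which had no floxed allele, were heterozygous for MerCreMer, a Cre recombinase that hydroxytamoxifen switches on and that the cardiomyocyte promoter of αMHC drives. Every mouse, controls included, was given hydroxytamoxifen at 3 months of age, at 500 µg daily over 5 days, and RNA was prepared from hearts removed 21 days later. The recombination is aimed at cardiomyocytes, while the RNA came from all cells of the apex. The sample titles read "untreated", which the protocol text applies to further treatments of cardiac function only. The labels name no shared litter or culture.

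Ion channels set the shape of the cardiac action potential. Sodium channels carry the fast upstroke, L-type calcium channels the current that triggers contraction, and voltage-gated potassium channels the repolarization that follows. In the mouse ventricle, repolarization is fast and rests largely on transient outward and delayed rectifier potassium currents. Inward rectifiers hold the resting potential, and HCN channels carry the pacemaker current of nodal cells. Most pores work with accessory subunits that alter their gating or their transport to the membrane. AKT kinases act downstream of insulin and growth factor receptors.

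Values are log2 levels, that is log2 of the background-subtracted spot intensity minus the 75th percentile of its array, so that 0 marks the brightness of that percentile. Levels of different genes come from different probes and are not set against each other. Groups were compared with limma in 1 fit over the 16 arrays, and a gene was called where the adjusted p over the 13725 genes was under 0.05. Akt2 itself was 2.00 log2 units lower in DKO and 2.37 lower in AKT2 KO than in control hearts, while the Akt1 probe differed by -0.02 in DKO and 0.10 in AKT1 KO hearts. Its position relative to the deleted exons is not known here, so it does not check the labels. Each of the 2 slides held 2 arrays of every group, and each group kept its own array column, so column and group cannot be told apart. On the first principal component DKO replicate 3 scored 78.6 and the remaining DKO arrays 42.5 to 47.8, so results that rest on it are given with and without it. The median SD of a channel gene within a group was 0.396 for DKO hearts, 0.224 for AKT1 KO hearts, 0.217 for AKT2 KO hearts and 0.139 for controls. The 9 cardiomyocyte markers (Myh6, Tnnt2 and others) were all well above background in every group. All 9 were called lower in DKO hearts, with a median log2 change of -0.43, and their summed intensity over the 75th percentile was 2560 to 3070 for DKO hearts, 3150 to 4350 for AKT1 KO hearts, 3230 to 3800 for AKT2 KO hearts and 3470 to 3980 for controls. All 7 fibroblast markers were called higher in DKO hearts (median 0.73), with sums of 295 to 363 in DKO, 187 to 221 in AKT1 KO hearts, 185 to 203 in AKT2 KO hearts and 188 to 200 in controls. In bulk samples fewer cells of a type and less RNA per cell cannot be told apart, and the part of these shifts in the channel values was not tested.

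The comparison of DKO with control hearts asked which channel transcripts changed when both kinases were targeted. Of the 67 genes, 34 (50.7%) were called, close to the 45.6% of all genes tested. They split as 26 lower (38.8%, against 21.2% of all genes) and 8 higher (11.9%, against 24.4%). The median log2 change was -0.45 over the channel genes and 0.017 over all genes tested. With normexp background correction the median was -0.28 over the channel genes and 0.00824 over all genes. That setting called 26 channel genes lower and 5 higher, with 43.4% of all genes called. DKO and control hearts did not overlap for 28 genes (41.8%, against 44.4% of all genes), of which 24 were lower (20.6% of all genes) and 4 higher (23.8%). Among the 55 genes detected in all 4 groups, 24 were lower and 6 higher, beside 21.2% and 24.4% of all genes tested. Without DKO replicate 3 the call count was 32 with a background of 51.1%, and it held 25 of the 34 genes and 7 others (Cacna1b, Cacna1i, Kcnip1, Kcnj8, Kcnk16, Kcnt2 and Scn10a). A total of 24 of the 34 calls held without any 1 array. Within slide 1 and slide 2 the log2 differences were -2.13 and -3.04 for Scn4b, -1.51 and -1.37 for Kcnh2, -1.26 and -1.31 for Kcnj5, -0.74 and -2.26 for Kcnj2, and 0.73 and 0.71 for Kcnn4. With slide as a block 38 channel genes were called, against 48% of all genes. With replicate number as a block 38 were called too, against 46.2%. Both blocks added the same 4 genes to the calls of the main fit, Cacna1i (-0.45), Kcnk4 (-0.50) and Kcnk16 (-0.61) included. All 23 genes with more than 1 kept probe were compared probe by probe: 15 of them were called, 14 of these moved in 1 direction on every probe, and Kcnk6 did not.

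Family counts stand beside those of all genes tested, of which 21.2% were called lower and 24.4% higher, with a median of 0.017. By family, the inward rectifiers had the lowest median, -1.23 over 8 genes, with 6 called lower and 0 higher. The 18 voltage-gated potassium pore genes had 7 called lower and 0 higher (median -0.42), and the 7 calcium channel pore genes 3 lower and 0 higher (-0.46). Both alpha2delta genes fell, while of 4 calcium channel beta genes 1 fell and 1 rose. The 6 sodium channel pore genes had 1 rise and 1 fall (0.16), and the 3 sodium channel beta genes 2 rises and 1 fall. Of 6 genes for 2-pore-domain potassium channels 2 rose and 1 fell (-0.35), and of 4 genes for calcium- and sodium-activated potassium channels 1 rose and 2 fell (-0.22). Of 5 potassium channel accessory genes 1 rose (-0.30), and of 2 pacemaker genes 1 fell. Families were not tested against each other or against all genes, and the counts of small families are not read as results.

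**Figure D1:**
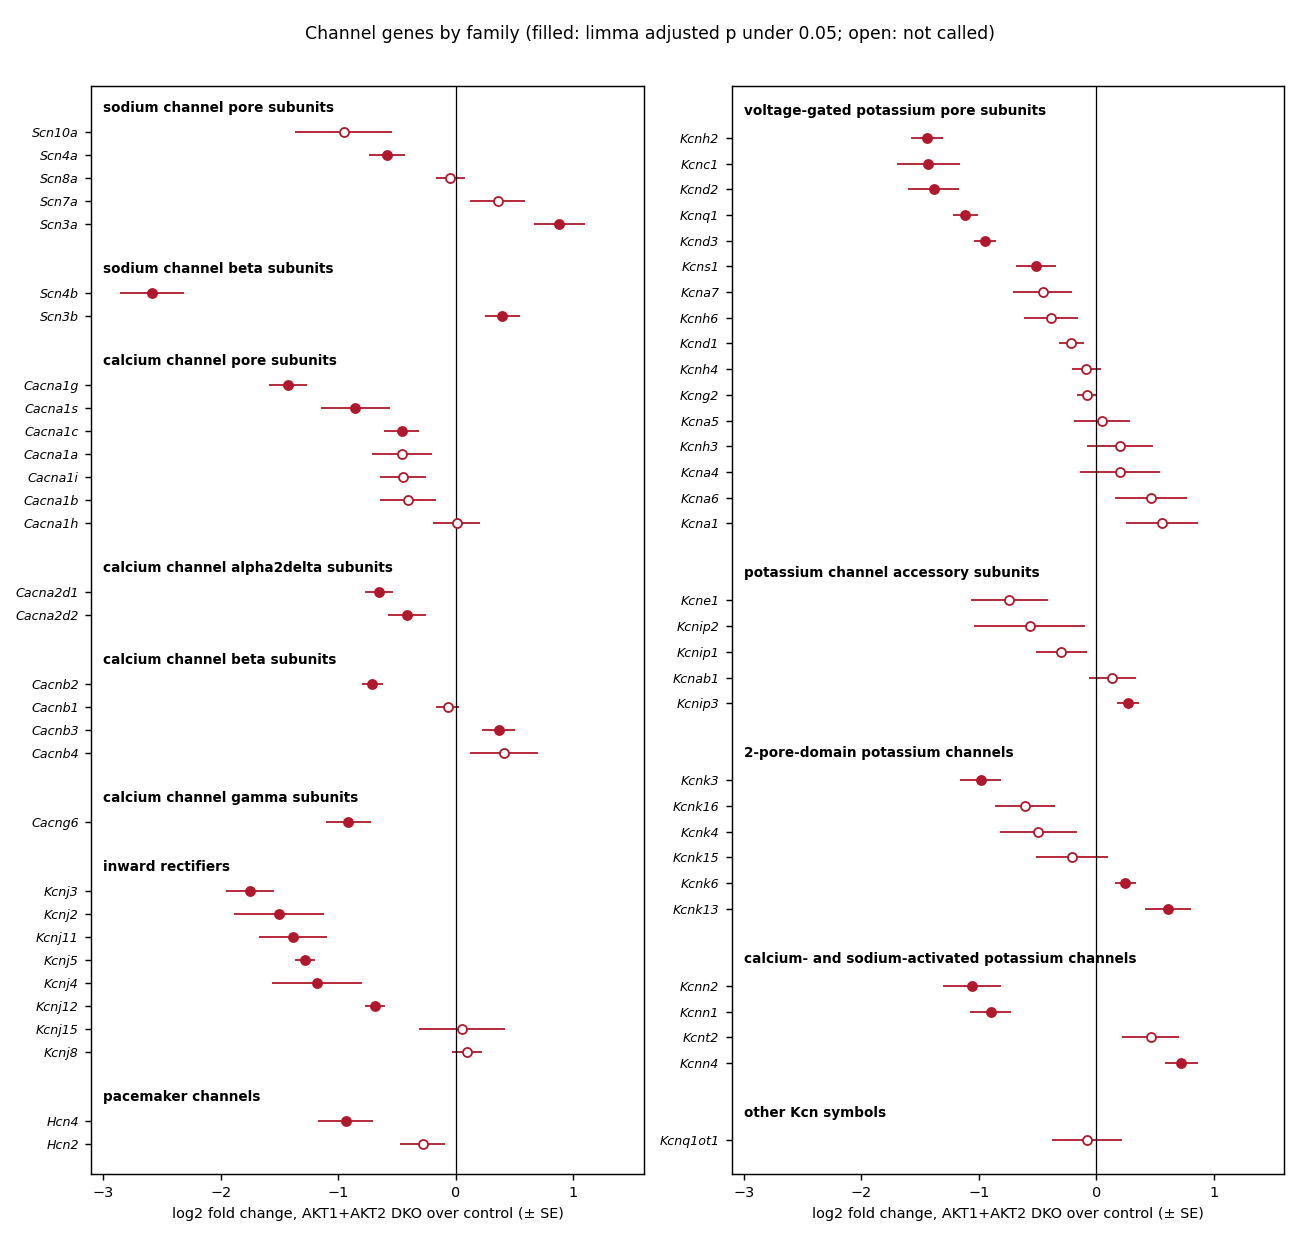
Log2 fold change of DKO over control hearts (x axis) for 63 of the channel genes (rows), by family. Points are limma estimates from 4 arrays per group and bars their SE; filled points are called and open points are not. Scn4b lies farthest to the left, at -2.58, and no inward rectifier or voltage-gated potassium pore gene has a filled point right of 0.

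Among sodium channel genes, the beta subunits split, with 1 fall and 2 rises. Scn4b (NM_001013390, chromosome 9) encodes the beta4 subunit, whose cytoplasmic tail can block the open pore. Its level was 0.76, 0.86, -0.52 and -0.29 in DKO hearts, 2.26, 3.0, 2.77 and 2.93 in AKT1 KO hearts, 2.48, 2.97, 2.67 and 2.82 in AKT2 KO hearts and 2.95, 2.94, 2.67 and 2.6 in control hearts. The 4 DKO hearts all lay below the 12 other hearts, and the fall of 2.58 ± 0.27 log2 units (SE, limma adjusted p = 4.15e-06) made it 6-fold lower, the largest change among the 67 genes. Without DKO replicate 3 it was -2.34. Scn3b, the beta3 subunit, averaged -2.7 ± 0.09 in DKO and -3.1 ± 0.28 in control hearts (SD, n = 4 each), and rose by 0.40 (0.0412). That call ended without control replicate 1, 3 or 4, AKT1 KO replicate 4, AKT2 KO replicate 1 or 3, or any 1 of the DKO replicates (adjusted p 0.0502 to 0.137), and with normexp (0.13, 0.289). Scn3b passed detection in DKO and AKT1 KO hearts only.

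Scn4a, the pore gene of skeletal muscle, averaged -1.97 ± 0.33 in DKO and -1.38 ± 0.18 in control hearts (SD, n = 4 each), a fall of 0.59 ± 0.15 (limma adjusted p = 0.00615). Of the 3 skeletal muscle markers tested, 2 (Acta1 and Tnni2) were lower too. Their sums were 9.4 to 15.5 in DKO, 9.89 to 40.6 in AKT1 KO, 8.25 to 35.7 in AKT2 KO and 27.4 to 47.3 in control hearts. Scn4a averaged -1.27 in AKT1 KO and -1.35 in AKT2 KO hearts, and the part of the markers in the Scn4a value was not tested. Scn3a, a pore gene best known from neurons, rose by 0.88 ± 0.22 (0.00455), and by 0.42 (0.00687) with normexp. It passed detection in DKO and AKT1 KO hearts but on 3 of 4 control arrays. Of 7 neuron and Schwann cell markers tested 3 were called higher and 2 lower, with sums of 15.1 to 31.4 in DKO, 12.1 to 14.5 in AKT1 KO hearts, 8.58 to 10.8 in AKT2 KO hearts and 11.8 to 12 in controls, and their part in the Scn3a value was not tested. Scn7a (0.36), Scn8a (-0.05) and Scn10a (-0.95, adjusted p = 0.0723) were not called.

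Of 14 calcium channel genes tested, pore and accessory subunits together, 7 fell and 1 rose, beside 21.2% and 24.4% of all genes tested. Cacna1g (NM_009783, chromosome 11), a T-type pore of nodal and conduction cells, had levels of -2.02, -2.39, -1.83 and -1.85 in DKO hearts, -1.51, -1.17, -1.12 and -1.32 in AKT1 KO hearts, -0.17, -0.95, -0.73 and -0.41 in AKT2 KO hearts and -0.71, -0.58, -0.68 and -0.43 in control hearts. No DKO heart reached any heart of the other groups, and the fall was 1.42 ± 0.16 (limma adjusted p = 8.66e-06), 2.68-fold. Its other 2 probes gave -1.18 and -1.72. The related T-type gene Cacna1h was not called, at 0.01 ± 0.20 (adjusted p = 0.983). Of the conduction system markers Cntn2, Gja5, Tbx3, Shox2 and Cpne5, only Shox2 was called (higher, 1.06), and their sum was 5.38 to 5.98 in DKO and 4.64 to 6.11 in control hearts, and their part in the Cacna1g value was not tested. Isl1 and Vsnl1 did not pass the detection filter.

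The L-type pore gene Cacna1c (NM_001256002, chromosome 6) carries the trigger for contraction. Its level was 3.0, 2.69, 2.15 and 2.58 in DKO hearts, 3.38, 3.07, 2.81 and 2.97 in AKT1 KO hearts, 2.89, 2.89, 2.98 and 2.78 in AKT2 KO hearts and 3.03, 3.16, 3.1 and 2.98 in control hearts. DKO replicate 1 lay among the control hearts and the other 3 below them. The difference of -0.46 ± 0.15 (limma adjusted p = 0.0215) was called, but not without control replicate 2 (0.054) or DKO replicate 3 (-0.31, 0.0502), and its other 2 probes (-0.27 and -0.24) were not called. With array weights it was -0.27 (0.0228). Its partners moved more evenly. Cacnb2 (chromosome 2), the main cardiac beta subunit, had levels of 0.45, 0.21, 0.44 and 0.39 in DKO hearts, 0.89, 0.96, 0.78 and 1.03 in AKT1 KO hearts, 0.98, 0.89, 0.87 and 0.84 in AKT2 KO hearts and 1.01, 1.15, 0.91 and 1.26 in control hearts. Cacna2d1 (chromosome 5), the alpha2delta subunit of muscle, had levels of 2.4, 2.36, 2.85 and 2.31 in DKO hearts, 2.93, 3.1, 3.01 and 3.19 in AKT1 KO hearts, 3.18, 2.81, 3.02 and 2.82 in AKT2 KO hearts and 3.12, 3.25, 3.06 and 3.11 in control hearts. For both genes all DKO hearts lay below all control hearts, and the falls were 0.71 ± 0.09 (1.82e-05) and 0.65 ± 0.12 (0.000441). In Cacna2d1 DKO replicate 3 was the highest of the DKO hearts, and without it the fall was 0.78.

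Cacng6, Cacna1s and Cacna2d2, like Kcnn2, Scn4a, Kcnj4 and Kcns1 in this comparison, are named after their values were seen. Cacng6, a gamma subunit, fell by 0.92 ± 0.19 (limma adjusted p = 0.00126), or 0.54 (0.00194) with normexp. Cacna1s, the L-type pore of skeletal muscle, fell by 0.85 ± 0.29 (0.0271), and lost its call when control replicate 1 or 4 or DKO replicate 3 was left out (0.0564 to 0.0639), the last with a value of -0.51. With array weights it was -0.51 (0.0366). Cacna2d2, a further alpha2delta subunit, fell by 0.42 ± 0.16 (0.0462). That call held only where control replicate 1, AKT1 KO replicate 1 or 3, or DKO replicate 4 was the array left out, and ended without any other (0.0549 to 0.149). Cacnb3, a beta subunit of neurons and smooth muscle, rose by 0.36 ± 0.14 (0.0482). Its call was lost on dropping DKO replicate 1 or 2, AKT1 KO replicate 2, 3 or 4, AKT2 KO replicate 1, or any 1 of the controls (0.0513 to 0.157), and without DKO replicate 2 the value was 0.24. With normexp it was 0.21 and not called (0.133). The neuronal pore genes Cacna1a, Cacna1b and Cacna1i had log2 differences of -0.46, -0.40 and -0.45, the beta subunit genes Cacnb1 and Cacnb4 of -0.07 and 0.41, and none of these was called. A second Cacna1a probe gave -0.35 (adjusted p = 0.0245 over all kept probes).

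**Figure D2:**
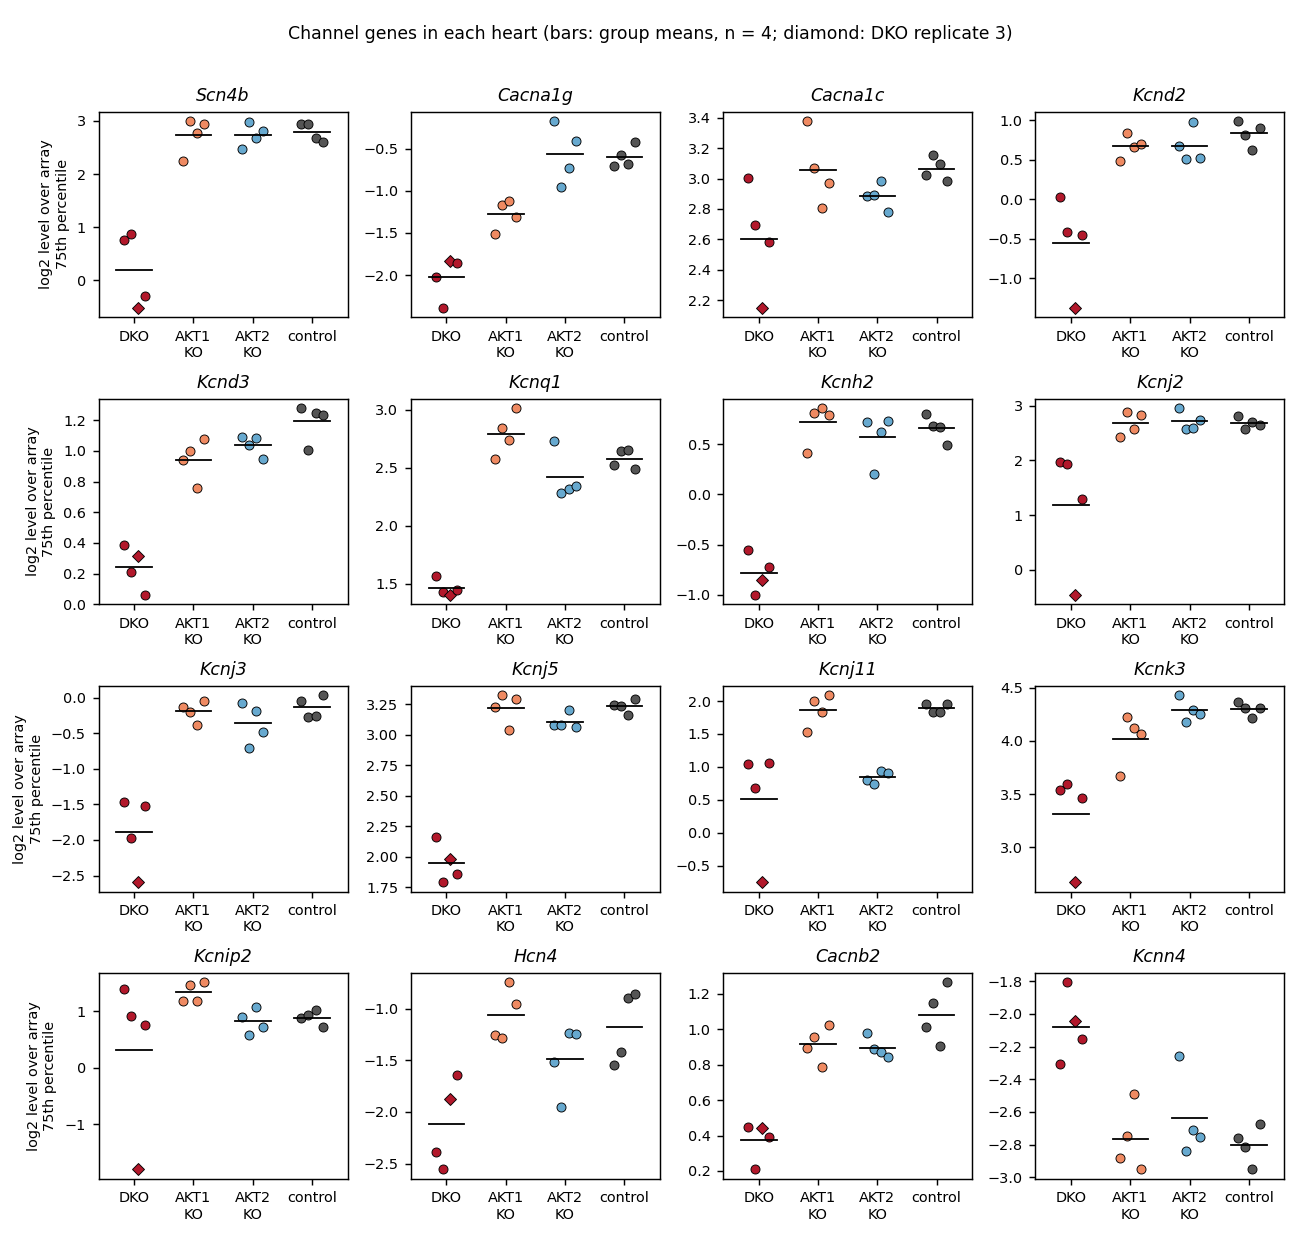
Log2 level over the array's 75th percentile (y axis) of 16 channel genes in each heart, by group (x axis); points are hearts, horizontal bars are means of 4 and the diamond is DKO replicate 3. Kcnq1, Kcnh2, Kcnj3, Kcnj5 and Scn4b show 4 DKO hearts below all others, Kcnj11 is low in AKT2 KO hearts too, and Cacna1g lies between in AKT1 KO hearts.

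Among genes of the transient outward currents Kcnd2 and Kcnd3 fell, and Kcna4 and Kcnip2 were not called. Kcnd2 (NM_019697, chromosome 6) encodes a pore of the fast transient outward current of mouse ventricle. Its level was 0.027, -0.41, -1.37 and -0.45 in DKO hearts, 0.49, 0.84, 0.66 and 0.7 in AKT1 KO hearts, 0.67, 0.51, 0.98 and 0.53 in AKT2 KO hearts and 0.99, 0.81, 0.62 and 0.91 in control hearts. Kcnd3 (chromosome 3), which encodes the partner pore, had levels of 0.39, 0.21, 0.32 and 0.06 in DKO hearts, 0.94, 1.0, 0.76 and 1.08 in AKT1 KO hearts, 1.09, 1.04, 1.09 and 0.95 in AKT2 KO hearts and 1.28, 1.01, 1.25 and 1.23 in control hearts. All DKO hearts lay below the 12 others for both genes, with falls of 1.39 ± 0.22 (limma adjusted p = 0.000143) for Kcnd2 and 0.95 ± 0.09 (1.94e-06) for Kcnd3. Kcnip2 (chromosome 19), the cytosolic subunit that carries these pores to the membrane, had levels of 1.39, 0.91, -1.79 and 0.76 in DKO hearts, 1.18, 1.46, 1.17 and 1.51 in AKT1 KO hearts, 0.89, 0.58, 1.08 and 0.72 in AKT2 KO hearts and 0.88, 0.92, 1.02 and 0.73 in control hearts. Only DKO replicate 3 was low, and DKO replicate 1 lay above every control heart. The difference of -0.57 ± 0.47 was not called (adjusted p = 0.349), and without DKO replicate 3 it was 0.14 (0.468). Kcna4, the pore of the slow transient outward current, was detected on all arrays of AKT1 KO hearts only, on 3 DKO, 1 AKT2 KO and 2 control arrays, with a difference of 0.20 (0.655).

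Among delayed rectifier genes Kcnq1 and Kcnh2 fell, and Kcne1 and Kcna5 were not called. Kcnq1 (NM_008434, chromosome 7), the pore of the slow delayed rectifier, had levels of 1.57, 1.43, 1.4 and 1.45 in DKO hearts, 2.57, 2.84, 2.74 and 3.01 in AKT1 KO hearts, 2.73, 2.29, 2.32 and 2.34 in AKT2 KO hearts and 2.53, 2.65, 2.66 and 2.49 in control hearts. The 4 DKO hearts lay close together and below every other heart, a fall of 1.12 ± 0.11 (limma adjusted p = 1.96e-06), and its other 2 probes gave -1.12 and -1.70. Kcne1, its accessory subunit, had levels of -0.18, -0.14, -0.64 and 0.12 in DKO hearts, -0.81, 0.2, 0.51 and -0.54 in AKT1 KO hearts, 2.07, 0.74, 0.54 and 0.76 in AKT2 KO hearts and 0.44, 0.41, 0.78 and 0.48 in control hearts. DKO hearts lay below all control hearts, yet AKT1 KO hearts spread over both and AKT2 KO replicate 1 stood high, and the difference of -0.74 ± 0.33 was not called (0.0765). Kcnq1ot1, a noncoding RNA of the Kcnq1 locus, differed by -0.08 (0.849).

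Kcnh2 (NM_013569, chromosome 5) encodes the pore of the rapid delayed rectifier. Its level was -0.55, -1.0, -0.85 and -0.73 in DKO hearts, 0.41, 0.81, 0.86 and 0.79 in AKT1 KO hearts, 0.72, 0.2, 0.62 and 0.73 in AKT2 KO hearts and 0.8, 0.68, 0.67 and 0.49 in control hearts. All DKO hearts lay below 0 and all other hearts above it, and the fall was 1.44 ± 0.14 (limma adjusted p = 1.64e-06), 2.72-fold, with -1.55 on the second probe. Kcna5, an ultrarapid delayed rectifier pore, did not differ beyond its spread, at 0.05 ± 0.24 (0.889). Kcnc1, a fast pore best known from neurons, fell by 1.43 ± 0.27 (0.000581) on a dim probe that was well above background on 1 DKO array and on all control arrays. With normexp the Kcnc1 fall was 0.63 (0.00111). Kcns1, a modifier subunit without a current of its own, fell by 0.51 ± 0.17 (0.0243), and was not called when control replicate 2 or 3 or DKO replicate 3 was dropped (0.0538 to 0.0669) or with normexp (-0.24, 0.121). It passed detection in AKT2 KO and control hearts only. In all, 11 voltage-gated pore genes were not called, Kcna4 and Kcna5 included. Among the others were Kcna7 (-0.46), Kcnh6 (-0.39), Kcnd1 (-0.21), Kcng2 (-0.08), Kcnh4 (-0.08), Kcnh3 (0.20), Kcna6 (0.46) and Kcna1 (0.56), the last without overlap between DKO and control hearts. A second Kcnh4 probe gave -0.81 (adjusted p = 0.0075 over all kept probes). Kcnip1 (-0.30) and Kcnab1 (0.14) were not called, and among the accessory genes only Kcnip3 was called, with a rise of 0.27 ± 0.10 (0.0348) that ended without control replicate 1, 2 or 4 or DKO replicate 1, 3 or 4 (0.0617 to 0.0801).

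The promoter windows of the channel genes were read, from 250 bases before to 50 after the start of transcription in RefSeq for GRCm38.p6. Of the 67 genes, 48 matched a window. The window of Scn4b (chr9:45138374-45138673, plus strand) is shown as that of the gene with the largest fall, and the window of Kcnh2 (chr5:24329542-24329841, minus strand) as a called pore gene with several matches. Capitals mark CACCC, the core that KLF factors bind, on either strand.
Scn4b: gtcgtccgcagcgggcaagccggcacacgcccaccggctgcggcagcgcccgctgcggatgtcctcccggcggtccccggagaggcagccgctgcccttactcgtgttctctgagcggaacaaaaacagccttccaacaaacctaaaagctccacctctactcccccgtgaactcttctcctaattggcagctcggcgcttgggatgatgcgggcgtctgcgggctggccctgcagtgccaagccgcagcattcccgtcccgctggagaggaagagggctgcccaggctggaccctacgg
Kcnh2: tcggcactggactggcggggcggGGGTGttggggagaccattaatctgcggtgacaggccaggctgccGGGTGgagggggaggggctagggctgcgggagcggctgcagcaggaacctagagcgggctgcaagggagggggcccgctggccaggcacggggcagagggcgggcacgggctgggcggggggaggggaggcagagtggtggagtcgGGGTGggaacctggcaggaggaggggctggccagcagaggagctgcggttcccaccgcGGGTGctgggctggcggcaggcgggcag
The Kcnh2 window held 4 matches to CACCC, all on the strand opposite to the printed one, where they read GGGTG, and the Scn4b window held 0. CACCC stood in 13 of 20 windows of genes lower in DKO hearts (65%), 4 of 4 of genes higher, 20 of 24 of genes not called (83.3%) and 56.7% of the 27025 windows in the table. GTAAACA, the core that FoxO factors bind, was in 0 of 20 windows of the lower genes, 0 of 4 of the higher genes, 0 of 24 of the genes not called and 3.55% of all windows. AGATAA, bound by factors of the GATA family, was in 0 of 20, 0 of 4, 2 of 24 (8.33%) and 11.4% of these. Both strands were searched and the motifs do not overlap each other. A match is a description of letters, and no match says only that these letters are not in the window.

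Inward rectifier genes of the resting current and of the receptor-gated current fell. Kcnj2 (NM_008425, chromosome 11) encodes the main pore of the current that holds the resting potential. Its level was 1.97, 1.94, -0.47 and 1.3 in DKO hearts, 2.43, 2.88, 2.58 and 2.83 in AKT1 KO hearts, 2.96, 2.57, 2.59 and 2.75 in AKT2 KO hearts and 2.82, 2.58, 2.71 and 2.65 in control hearts. All DKO hearts lay below the others, DKO replicate 3 far below, and the fall was 1.5 ± 0.38 (limma adjusted p = 0.00522), or 0.95 (0.000247) without that array and 0.87 (2e-04) with array weights. Kcnj12 (chromosome 11), a partner pore, had levels of 1.5, 1.36, 1.31 and 1.44 in DKO hearts, 1.92, 1.96, 1.9 and 1.81 in AKT1 KO hearts, 2.1, 2.11, 2.11 and 1.84 in AKT2 KO hearts and 2.19, 1.95, 1.98 and 2.22 in control hearts, and fell by 0.68 ± 0.09 (2.13e-05), with no DKO heart reaching another group. Kcnj4, the third gene of this class here, fell by 1.18 ± 0.39 (0.0212), but DKO replicate 4 lay above all control hearts at -1.64. That call ended without control replicate 3, DKO replicate 1 or DKO replicate 3 (0.0513 to 0.0607), and with normexp the fall was 0.74 (0.0268).

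Kcnj3 and Kcnj5 encode the 2 pore subunits of the current that acetylcholine opens through G proteins, best known from atrial and nodal cells. Kcnj3 (NM_008426, chromosome 2) had levels of -1.47, -1.97, -2.59 and -1.53 in DKO hearts, -0.13, -0.21, -0.39 and -0.052 in AKT1 KO hearts, -0.07, -0.7, -0.19 and -0.48 in AKT2 KO hearts and -0.053, -0.27, -0.27 and 0.033 in control hearts. Kcnj5 (NM_010605, chromosome 9) had levels of 2.16, 1.79, 1.98 and 1.86 in DKO hearts, 3.23, 3.32, 3.04 and 3.29 in AKT1 KO hearts, 3.08, 3.08, 3.2 and 3.06 in AKT2 KO hearts and 3.25, 3.24, 3.16 and 3.29 in control hearts. The DKO hearts lay below all others in both, by 1.75 ± 0.21 (limma adjusted p = 1.26e-05) for Kcnj3, a 3.37-fold fall, and by 1.28 ± 0.09 for Kcnj5 (7.01e-08), the smallest adjusted p among the channel genes. No atrial marker was called lower. Of Myl7, Myl4 and Nppa only Nppa was called in DKO hearts, and it was higher. The markers summed to 547 to 701 in DKO, 263 to 354 in AKT1 KO, 83.9 to 227 in AKT2 KO and 89.6 to 140 in control hearts. In AKT1 KO hearts 1 of them was called higher, while Kcnj3 (-0.06) and Kcnj5 (-0.01) were not called. The part of these markers in the Kcnj3 and Kcnj5 values was not tested. Sln and Bmp10 did not pass the detection filter.

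The ATP-sensitive channel genes split. Kcnj11 (NM_010602, chromosome 7), the pore of the myocyte channel, had levels of 1.04, 0.68, -0.75 and 1.06 in DKO hearts, 1.54, 2.0, 1.84 and 2.09 in AKT1 KO hearts, 0.8, 0.74, 0.93 and 0.9 in AKT2 KO hearts and 1.95, 1.83, 1.83 and 1.95 in control hearts. DKO and AKT2 KO hearts lay below all AKT1 KO and control hearts, and in DKO hearts the fall was 1.38 ± 0.29 (limma adjusted p = 0.00144), or 0.96 (2.38e-05) without DKO replicate 3. Kcnj8 (chromosome 6), the pore best known from vascular smooth muscle, had levels of 4.48, 4.35, 3.77 and 4.24 in DKO hearts, 3.82, 4.06, 4.11 and 4.0 in AKT1 KO hearts, 4.03, 3.89, 4.12 and 4.2 in AKT2 KO hearts and 4.2, 4.02, 4.09 and 4.13 in control hearts. Here DKO replicate 3 was below all control hearts and the other 3 DKO hearts lay above all control hearts. The difference was 0.10 ± 0.13 (0.553), and 0.25 without DKO replicate 3, where it was called (0.0344). Of the sulfonylurea receptor genes that complete these channels, Abcc9 was 0.65 lower (0.00757), and Abcc8 differed by -0.62 (0.0876). The remaining inward rectifier, Kcnj15, differed by 0.05 and was not called.

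Background potassium channel genes moved both ways. Kcnk3 (NM_010608, chromosome 5), an acid-sensitive 2-pore-domain channel, had levels of 3.54, 3.59, 2.67 and 3.46 in DKO hearts, 3.67, 4.23, 4.12 and 4.06 in AKT1 KO hearts, 4.43, 4.18, 4.29 and 4.25 in AKT2 KO hearts and 4.37, 4.31, 4.22 and 4.31 in control hearts. All DKO hearts were below all others, DKO replicate 3 lowest, and the fall was 0.98 ± 0.17 (limma adjusted p = 0.000326), or 0.77 (5.91e-05) without that array. Kcnk13 rose by 0.61 ± 0.20 (0.0198), but was not called when control replicate 4 or DKO replicate 2 or 3 was dropped (0.0506 to 0.059) or with normexp (0.31, 0.0545). Kcnk6 rose by 0.25 ± 0.09 (0.0391) on its brightest probe, while its second probe gave -0.41 and was not called. The Kcnk6 call ended without control replicate 1, 2 or 4, AKT2 KO replicate 3 or DKO replicate 2, 3 or 4 (0.05 to 0.116). Kcnk4 (-0.50), Kcnk15 (-0.21) and Kcnk16 (-0.61) were not called.

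Small-conductance calcium-activated genes fell and the intermediate-conductance gene rose. Kcnn1 (NM_032397, chromosome 8) had levels of -0.55, -0.59, -1.45 and -0.83 in DKO hearts, -0.73, -0.28, -0.079 and -0.22 in AKT1 KO hearts, 0.12, 0.15, -0.17 and -0.088 in AKT2 KO hearts and 0.053, 0.11, 0.048 and -0.034 in control hearts, and Kcnn2 (NM_080465, chromosome 18) had levels of 0.39, -0.15, -1.19 and 0.21 in DKO hearts, 0.96, 1.01, 0.79 and 0.98 in AKT1 KO hearts, 0.66, 0.76, 1.03 and 0.53 in AKT2 KO hearts and 0.99, 0.94, 0.74 and 0.82 in control hearts. All DKO hearts lay below all control hearts in both, although DKO replicates 1 and 2 of Kcnn1 lay above AKT1 KO replicate 1. The falls were 0.90 ± 0.18 (limma adjusted p = 0.000836) for Kcnn1 and 1.06 ± 0.25 (0.003) for Kcnn2, and 0.70 and 0.72 without DKO replicate 3. Kcnn4 (NM_001163510, chromosome 7), known from fibroblasts and blood cells, had levels of -2.31, -1.81, -2.04 and -2.16 in DKO hearts, -2.89, -2.75, -2.49 and -2.95 in AKT1 KO hearts, -2.26, -2.84, -2.71 and -2.76 in AKT2 KO hearts and -2.76, -2.82, -2.95 and -2.67 in control hearts. The lowest DKO heart was still above every control heart, a rise of 0.72 ± 0.14 (0.000764), or 0.40 (0.0131) with normexp. Macrophage markers moved the same way, with 4 of 6 called higher, as did the fibroblast markers above. Macrophage sums were 26.8 to 37.2 in DKO, 19.6 to 24.8 in AKT1 KO, 20.9 to 29.7 in AKT2 KO and 22.4 to 25.3 in control hearts. The part of these markers in the Kcnn4 value was not tested. Kcnt2, a sodium-activated channel gene, differed by 0.46 and was not called.

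The pacemaker genes gave 1 call. Hcn4 (NM_001081192, chromosome 9), the main pacemaker pore of the sinus node, had levels of -2.39, -2.56, -1.88 and -1.65 in DKO hearts, -1.25, -1.28, -0.74 and -0.96 in AKT1 KO hearts, -1.52, -1.96, -1.24 and -1.24 in AKT2 KO hearts and -1.54, -1.42, -0.89 and -0.86 in control hearts. The DKO hearts lay below all control hearts, with a fall of 0.94 ± 0.23 (limma adjusted p = 0.00399), while AKT2 KO replicate 2, an array of slide 1, reached into the range of the DKO hearts of slide 2. Within each slide the DKO hearts lay below the AKT2 KO hearts. Hcn2, the form of ventricular myocytes, averaged 4.53 ± 0.28 in DKO and 4.81 ± 0.16 in control hearts (SD, n = 4 each), a difference of -0.28 ± 0.19 that was not called (0.247).

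**Figure D3:**
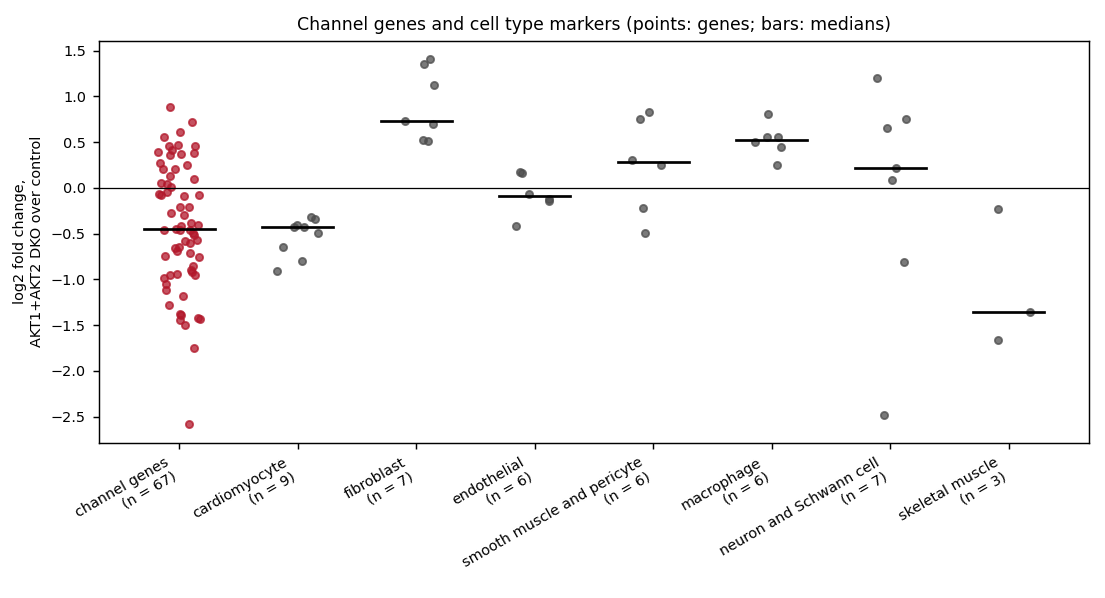
Log2 fold change of DKO over control hearts (y axis) for the channel genes and for cell type marker lists (x axis, with the number of genes); points are genes and bars medians. The 67 channel genes lie between -2.58 and 0.88 and the 9 cardiomyocyte markers between -0.91 and -0.32.

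Of the 9 cardiomyocyte markers the change was smallest for Tnnt2 (-0.32) and largest for Ryr2 (-0.91), as the plot of channel genes beside cell type markers shows. Of 47 other genes of cardiac excitation on a list, 45 were measured. Of these, 14 were called lower and 5 higher (median -0.11), beside 21.2% and 24.4% of all genes tested (median 0.017). Lower were the channel partners Trdn (-1.04), Rangrf (-0.80), Ank2 (-0.66), Trpm4 (-0.63), Dpp6 (-0.66) and Dpp10 (-1.36), the calcium pump gene Atp2a2 (-0.61) and the transcription factors Irx3 (-0.57), Irx4 (-0.87), Irx5 (-0.34) and Tbx5 (-0.54). The kinase genes Sgk3 (-0.72) and Prkaca (-0.64) were lower as well. Among those higher were the sodium pump subunit Atp1b1 (0.60), the sodium-calcium exchanger Slc8a1 (0.53), the calmodulin gene Calm2 (0.50) and the gap junction gene Gjc1 (0.20). Irx5 is known in mice as a repressor of Kcnd2.

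AKT1 KO hearts were set against control hearts to see which channel transcripts differed with AKT1 alone targeted. By limma, 0 of the 67 genes were called (0.794% of all genes tested, 0.415% higher and 0.379% lower), with 5 at an unadjusted p under 0.05 (7.41% of all genes; Cacna1g, Cacnb4, Kcnd3, Kcnj12 and Kcns1). The median log2 change of the channel genes was -0.03. AKT1 KO and control hearts did not overlap for 4 genes, Cacna1g, Kcnab1, Kcnip2 and Kcnn1 (5.97%, against 9.19% of all genes). Only Kcnip2 was higher (2.9% of all genes were), and the other 3 were lower (6.29%). Cacna1g was lowest in DKO hearts, with AKT1 KO hearts between them and the controls, while AKT2 KO hearts overlapped the controls. All 4 AKT1 KO hearts lay below all control hearts, at -0.68 ± 0.16 (adjusted p = 0.0819), and the other probes gave -0.60 and -0.95. Cacna1g was called with the mean of its probes (0.0433), with array weights (0.00752), without DKO replicate 3 (0.043) and with only AKT1 KO and control arrays in the fit (0.0167). Kcnip2 went the other way, with a difference of 0.44 (0.977) and all AKT1 KO hearts above all control hearts. The SE is shared by all groups, and for Kcnip2 DKO replicate 3 lay far below the other DKO hearts (-1.79). With only AKT1 KO and control arrays in the fit the adjusted p was 0.0971, still not called.

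AKT2 KO hearts set against control hearts gave 0 calls among the 67 genes by limma (0.131% of all genes, 0.0729% higher and 0.0583% lower), with 2 at an unadjusted p under 0.05 (3.23% of all genes; Cacna2d2 and Kcnj11), and a median log2 change of -0.07. The groups did not overlap for Cacna2d2, Kcnj11 and Kcnj4 (4.48%, against 7.62% of all genes), all lower (5.11% of all genes), and 0 were higher (2.51%). Kcnj11 stood out in the plot of levels by heart. Its 4 AKT2 KO values lay between 0.74 and 0.93 and its control values between 1.83 and 1.95, a difference of -1.05 ± 0.29 (adjusted p = 0.562) and 2.07-fold. The SE is shared by all groups, and DKO replicate 3 lay far below the other DKO hearts for this gene: without that array the adjusted p was 0.000438, with array weights 7.85e-05, and with only AKT2 KO and control arrays in the fit 0.000175. The second Kcnj11 probe gave -1.03 in AKT2 KO and 0.12 in AKT1 KO hearts. Abcc8, which encodes a receptor subunit of the same channel, was 3.17, 3.07, 3.25 and 3.2 in AKT2 KO and 3.85, 3.88, 3.75 and 3.77 in control hearts, also without overlap (-0.64, adjusted p = 1). Kcnj11, Abcc8 and Akt2 all lie on chromosome 7, and the part of that position in these values was not tested.

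**Figure D4:**
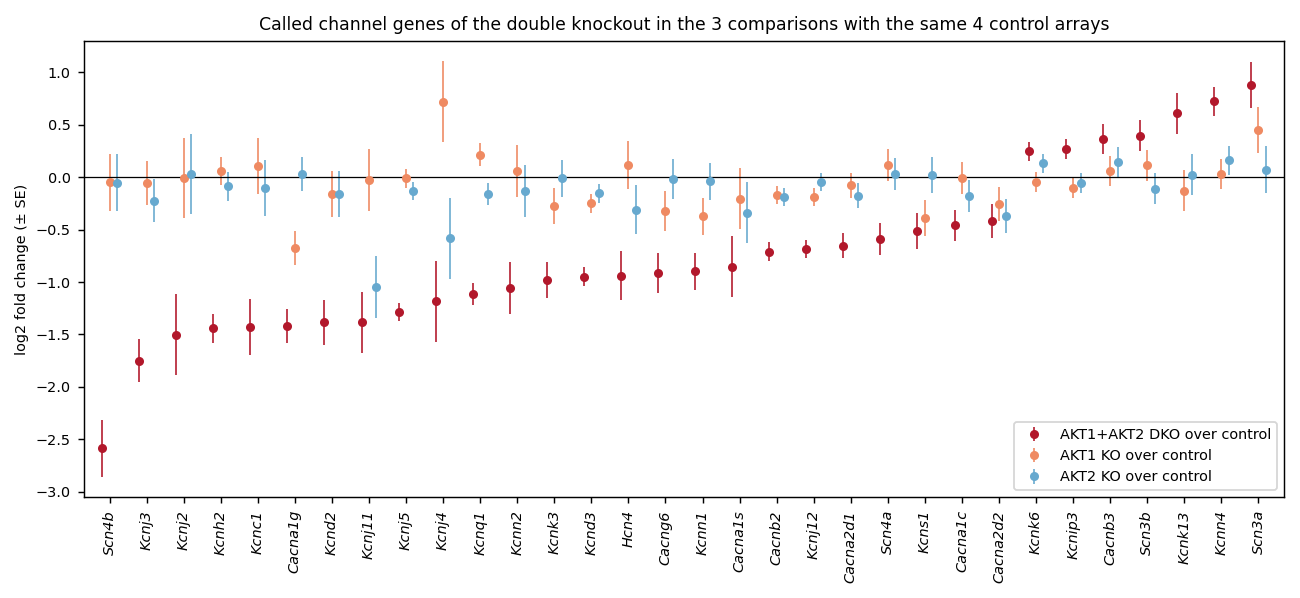
Log2 fold change over control (y axis) of 32 of the channel genes called in DKO hearts (x axis), in DKO, AKT1 KO and AKT2 KO hearts; points are limma estimates, bars their SE, and all 3 comparisons share the same 4 control arrays. In AKT1 KO hearts Cacna1g lies at -0.68, Kcnj4 at 0.72 and the other genes between -0.39 and 0.45; in AKT2 KO hearts Kcnj11 lies at -1.05, Kcnj4 at -0.58 and the others between -0.37 and 0.16.

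DKO hearts were also set against each single knockout, and these comparisons share the DKO arrays with the one against control hearts. Against AKT1 KO hearts 35 channel genes were called, 8 higher and 27 lower (47% of all genes tested, 26.7% higher and 20.3% lower), and against AKT2 KO hearts 29, 7 higher and 22 lower (42.1%, 23.5% higher and 18.6% lower). Lower than in AKT1 KO hearts were Kcnj5 (-1.27, limma adjusted p = 9.15e-08), Kcnq1 (-1.33, 4.21e-07), Kcnh2 (-1.5, 1.24e-06) and Scn4b (-2.54, 5.4e-06). Lower than in AKT2 KO hearts were Kcnj5 (-1.16, 2.26e-07), Kcnh2 (-1.35, 3.54e-06), Scn4b (-2.53, 6.24e-06), Cacna1g (-1.45, 8.61e-06) and Kcnq1 (-0.96, 1.02e-05). Kcnn4 was higher in DKO hearts than in AKT1 KO (0.69, 0.00103) and AKT2 KO hearts (0.56, 0.00497). Kcnj11 was lower than in AKT1 KO (-1.36, 0.00159) but was not called against AKT2 KO hearts (-0.34, 0.378, and 0.082, 0.606 without DKO replicate 3). Kcne1 was lower than in AKT2 KO hearts (-1.24, 0.00688). Between AKT2 KO and AKT1 KO hearts 0 genes were called by limma (0.896% of all genes, 0.415% higher and 0.481% lower), with 8 at an unadjusted p under 0.05 (7.35% of all genes). With array weights 5 were called (Cacna1g, Kcne1, Kcnj11, Kcnj4 and Kcnq1), against 6.19% of all genes. Leaving out 1 array brought calls of Cacna1g (AKT2 KO replicate 2 or DKO replicate 2 or 3), Kcnj11 (DKO replicate 3), Kcnj4 (DKO replicate 4), Kcnq1 (AKT2 KO replicate 1) and Kcna4 (AKT2 KO replicate 3), with adjusted p of 0.00021 to 0.0358.

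The departure from additivity is the DKO value minus both single knockouts plus control, and is 0 where both single changes add up to that of DKO hearts on the log2 scale. By limma, 15 of the 67 genes departed from it (22.4%, against 26% of all genes), 14 below (10.1% of all genes) and 1 above (15.9%). Scn4b departed by -2.48 ± 0.39 (adjusted p = 0.000436), Kcnj3 by -1.47 ± 0.29 (0.00238), Kcnh2 by -1.41 ± 0.19 (0.000171), Kcnq1 by -1.17 ± 0.15 (0.000116) and Kcnj5 by -1.14 ± 0.12 (2.36e-05). The AKT1 KO and AKT2 KO differences from control were -0.05 and -0.06 for Scn4b, 0.06 and -0.09 for Kcnh2, and -0.01 and -0.13 for Kcnj5. Kcnd2 (-1.06), Kcnd3 (-0.55) and Kcnj12 (-0.45) departed too. Kcnj11 did not (-0.31 ± 0.41, 0.618, and 0.11, 0.644 without DKO replicate 3), nor did Kcnj2 (-1.52 ± 0.54, 0.0509), which was called without DKO replicate 3 (-0.97, 0.00369). Without DKO replicate 3 the count was 21 (35% of all genes), and with array weights 33 (44.8%).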

How the data were processed

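The scanner files hold spot intensity as deposited by the authors, from Agilent Feature Extraction 12.0.3.1 per the file headers, with background already subtracted. The log2 values of the table the authors deposited matched quantile-normalized scanner values (r 0.9999 to 1), centred near 0 (column medians -0.0245 to 0.0134), and was an alternative only. Its gene centring is not given in the sources used here. Total RNA (100 ng per heart) was labelled with Cy3, per the labels' protocols.

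Here, each array's log2 intensity was taken relative to its 75th percentile (492.1 to 809.4 intensity units). Control spots were left out, and a probe was kept where it was well above background on all 4 arrays of a group. On each array 24400 to 30565 of 56605 probes were well above background (43.1 to 54%). RefSeq accessions named 32994 probes, and the brightest kept probe stood for a gene. Group means over 16 arrays were fitted in R 4.3.3 with limma 3.58.1 (with the data.table package, version 1.17.8), with 12 residual and 2.54 prior degrees of freedom and Benjamini-Hochberg adjustment over 13725 genes. The procedure was tested on simulated data. Precision is limited by 4 hearts per group.

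Genes were named where called, up to 15 per direction against control hearts and up to 5 in other comparisons, plus 29 cardiac action potential genes, 26 of them measured. A few genes that the counts include are not reported here. Members and lists were chosen with earlier results of these data known. Alternatives were normexp, quantile and median scaling, the authors' table, no filter, mean of probes, array weights, slide and replicate blocks, each slide alone, leaving out each array, and, chosen after seeing the data, fits of only the groups compared.

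Replicate numbers were not taken to pair the samples, since the labels name nothing shared. Yet 15 of 24 same-numbered pairs of arrays had a correlation of deviations over 0.1 (range -0.35 to 0.392). Of 16 arrays, 9 correlated best with their own number. In DKO, AKT2 KO and control hearts each number had the same slide and row, so number and position cannot be told apart there. Whether arrays of 1 number share a factor was not tested, and the replicate block is given as an alternative.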

Additional observations from a re-analysis of the deposited data

Results flagged for a closer look

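Among 32 named genes in 4 groups (128 sets of 4 hearts), 10 sets held a heart far from the other 3, where chance gives about 1 set in 20. In 2 of them that heart was DKO replicate 3: Kcnk3 was 2.67 there and 3.46 to 3.59 in the other DKO hearts, and Cacna2d1 was 2.85 there and 2.31 to 2.40 in the other DKO hearts. In AKT1 KO hearts, Kcnh2 stood apart in replicate 1 (0.415) and Kcna5 in replicate 3 (-0.405). In AKT2 KO hearts, replicate 1 stood apart for Kcnq1 (2.73), Kcnc1 (-3.98) and Kcne1 (2.07), replicate 3 for Kcnj5 (3.2) and replicate 4 for Kcnj12 (1.84). In control hearts, Kcnip3 stood apart in replicate 3 (-0.152).

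The AKT1 effect differed with AKT2 present or targeted for 14 of the genes reported here, tested in limma as the departure from additivity. Departures with their adjusted p were -1.14 for Kcnj5 (2.36e-05), -1.17 for Kcnq1 (0.000116), -1.41 for Kcnh2 (0.000171) and -2.48 for Scn4b (0.000436). They were -1.47 for Kcnj3 (0.00238), -0.55 for Kcnd3 (0.00685), -1.43 for Kcnc1 (0.0128), -0.45 for Kcnj12 (0.014) and -1.06 for Kcnd2 (0.0206). They were -0.73 for Scn4a (0.0223), -0.77 for Cacna1g (0.0224), 0.42 for Kcnip3 (0.0351), -0.35 for Cacnb2 (0.048) and -0.69 for Kcnk3 (0.048). Leaving out 1 array ended the call of Cacnb2 for 12 arrays (all but DKO replicates 1 and 3, AKT1 KO replicate 3 and control replicate 4, adjusted p 0.0549 to 0.0996). It ended that of Kcnip3 for 9 arrays (DKO replicates 1 and 4, AKT1 KO replicates 2, 3 and 4, AKT2 KO replicates 1 and 2, control replicates 2 and 3, 0.0524 to 0.0731). It ended that of Kcnk3 for 11 arrays (AKT1 KO replicates 2, 3 and 4 and every AKT2 KO and control array, 0.0589 to 0.0905), and no single array ended the other calls listed here.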

How the results depend on the processing

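Of the channel genes, 34 were called in DKO against control hearts (45.6% of all genes) and 31 with normexp (43.4%). The count was 31 with quantile scaling, 33 with median scaling and 31 from the authors' deposited table. Shares of all genes are given in this section only for some settings. Counts without a share are not read as results about the channel genes. Within slide 2 alone, with 2 arrays per group, 17 were called against control, 17 against AKT1 KO, 15 against AKT2 KO hearts and 4 for additivity. Slide 1 alone also had 2 arrays per group, fewer than the main fit. There the calls of DKO against control hearts that ended were those of Cacna1c, Cacna1s, Kcnip3, Kcnk13, Kcnk6 and Scn3b. DKO replicate 3 lies on slide 2, and the cause of the slide 2 counts was not tested. With array weights, 3 genes were called in AKT1 KO (5.99% of all genes) and 1 in AKT2 KO against control hearts (0.678%). The same setting gave 5 between AKT2 KO and AKT1 KO hearts (6.19%) and 33 for additivity (44.8%). The mean of probes gave 1 call in AKT1 KO, and fits of only the groups compared, chosen after seeing the data, gave 1 in AKT1 KO and 1 in AKT2 KO against control hearts. Within slide 1, 2 genes were called between AKT2 KO and AKT1 KO hearts. Leaving out each array in turn gave 27 to 34 calls for DKO against control, 29 to 38 against AKT1 KO, 26 to 34 against AKT2 KO hearts and 12 to 21 for additivity, 0 to 1 for each single knockout against control, and 0 to 2 between the single knockouts. The mean of probes reversed Kcnk6 in DKO against control (-0.0817) and against AKT1 KO hearts (-0.238). Against control its 2 probes changed in opposite directions, by 0.25 on the brightest and -0.41 on the second. With the replicate block 38 genes were called in DKO against control (46.2% of all genes), 37 against AKT1 KO (47.4%) and 30 against AKT2 KO hearts (42.2%). It gave 16 for additivity (25.5%) and 0 in the other comparisons (0.124 to 0.765%). Probes near background limit dim genes such as Kcna4, Kcnk15 and Kcnc1.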
